A study of Mus musculus with 4 samples.

Results

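The C-type lectin receptors of monocytes were described here as a set of 9 genes, *Clec4a1*, *Clec4a2*, *Clec4a3*, *Clec4d*, *Clec4e*, *Clec4n*, *Clec5a*, *Clec7a* and *Clec12a*, chosen by gene symbol out of the 23995 symbols of the deposited table. All 9 were listed, and all 9 were among the 10240 symbols that reached an FPKM of 1 in 1 or more of the libraries, called expressed genes below. FPKM, fragments counted relative to transcript length and to all mapped fragments of a library, is a level per transcript length. Blood monocytes of 2 subsets, Ly6Clo and Ly6Chi, were taken from mice of 2 genotypes, and each of the 4 groups holds 1 library. The RBP-J-deficient mice were Rbpjfl/flLyz2cre/cre and the control mice were Rbpj+/+Lyz2cre/cre, so both genotypes carried Cre at both alleles of the myeloid gene *Lyz2* and differed in the floxed *Rbpj* allele. Lyz2-driven Cre acts in myeloid cells in general, so that it also deletes floxed genes in neutrophils and macrophages. The sample titles call the control libraries WT, whereas their genotype label reads Lyz2-Cre. The study's methods give mice of 7 to 12 weeks of age, and whether cells of several animals were pooled is not given in the sources used here. With 1 library per group no difference below has a replicate check, no test was made, and a gene is described as higher or lower past a ratio of 2-fold.

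C-type lectin receptors bind sugars, lipids and proteins on microbes and damaged cells, and monocytes, macrophages and dendritic cells use them as pattern recognition receptors. The activating members signal through an immunoreceptor tyrosine-based activation motif (ITAM), which sits either on a partner chain, FcRγ (gene *Fcer1g*) or DAP12 (gene *Tyrobp*), or in a shortened form in the receptor's own tail. Phosphorylated ITAMs recruit the kinase SYK, and the CARD9, BCL10 and MALT1 complex carries the signal on to NF-κB. The inhibitory members carry an inhibitory motif (ITIM) that recruits the phosphatases SHP-1 and SHP-2 (genes *Ptpn6* and *Ptpn11*). RBP-J, encoded by *Rbpj*, is the DNA-binding factor of Notch signalling.

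All 9 genes lie on chromosome 6 of GRCm38, in 3 places. *Clec5a* lies apart from the others (chr6:40574894-40585821, minus strand, GENCODE M21). The Dectin-2 cluster holds *Clec4a1* (chr6:122921848-122934619), *Clec4a3* (chr6:122952515-122969875), *Clec4a2* (chr6:123106428-123143999), *Clec4n* (chr6:123229843-123247021) and *Clec4d* (chr6:123262111-123275265) on the plus strand and *Clec4e* (chr6:123281789-123289870) on the minus strand. The Dectin-1 cluster holds *Clec12a* (chr6:129342691-129365303, plus strand) and *Clec7a* (chr6:129461591-129472779, minus strand). GENCODE lists 8 of them as protein-coding and *Clec7a* as a polymorphic pseudogene, its term for a gene that is intact in some strains. For *Clec5a* the deposited locus spans 382 kb against 10.9 kb in GENCODE, and it takes in the coding genes *Mgam*, *Moxd2*, *Olfr460*, *Olfr461*, *Prss58* and *Tas2r138*.

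Promoters were available for 8 of the 9 genes, from RefSeq on GRCm38.p6, as 250 bases before to 50 bases after the start site. The 4 shown belong to genes that were at least 2-fold higher in the RBP-J-deficient Ly6Clo library. They are written 5′ to 3′ on the strand of the gene, and capitals mark the core letters of PU.1, the factor on which monocyte development rests (GAGGAA, or TTCCTC where it lies on the other strand).
Clec4d, chr6:123261857-123262156, plus strand: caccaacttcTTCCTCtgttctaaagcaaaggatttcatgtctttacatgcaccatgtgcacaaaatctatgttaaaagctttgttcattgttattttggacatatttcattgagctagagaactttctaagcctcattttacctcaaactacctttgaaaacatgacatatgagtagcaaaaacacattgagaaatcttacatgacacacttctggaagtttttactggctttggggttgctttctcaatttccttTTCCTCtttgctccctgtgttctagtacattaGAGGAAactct
Clec4e, chr6:123289822-123290121, minus strand: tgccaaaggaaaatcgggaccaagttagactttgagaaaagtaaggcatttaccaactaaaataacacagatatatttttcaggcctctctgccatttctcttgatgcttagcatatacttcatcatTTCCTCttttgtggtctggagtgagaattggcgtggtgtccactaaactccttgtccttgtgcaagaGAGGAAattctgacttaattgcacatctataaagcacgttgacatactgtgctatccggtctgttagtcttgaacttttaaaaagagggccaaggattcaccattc
Clec5a, chr6:40585756-40586055, minus strand: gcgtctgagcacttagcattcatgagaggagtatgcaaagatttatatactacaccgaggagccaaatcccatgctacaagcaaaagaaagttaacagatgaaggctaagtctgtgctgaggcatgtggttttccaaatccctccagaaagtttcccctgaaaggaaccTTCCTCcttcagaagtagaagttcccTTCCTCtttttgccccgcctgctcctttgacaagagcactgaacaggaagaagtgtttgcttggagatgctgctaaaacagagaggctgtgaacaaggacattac
Clec7a, chr6:129472730-129473029, minus strand: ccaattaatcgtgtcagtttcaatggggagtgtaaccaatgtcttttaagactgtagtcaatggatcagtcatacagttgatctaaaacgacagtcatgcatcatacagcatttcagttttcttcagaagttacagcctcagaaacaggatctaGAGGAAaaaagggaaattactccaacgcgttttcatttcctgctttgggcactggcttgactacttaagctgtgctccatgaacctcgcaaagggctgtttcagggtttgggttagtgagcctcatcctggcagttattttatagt

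Searched on both strands, GAGGAA was found in a promoter of 7 of the 8 genes, all but *Clec4a2*. Counted by promoter rather than by gene, it was found in 28.3% of 32851 mouse promoters of the same length. *Clec4a3* and *Clec7a* were listed with alternative promoters, and the *Clec4a3* promoter at chr6:122952265-122952564 held 0 matches. In *Clec4d* it stood at -240, 8 and 40 from the start site, and in *Clec4e* at -123 and -56. The core of RBP-J (TGGGAA) was found in 0 of the 8 genes, in any of their promoters, and in 25.6% of all promoters. A C/EBP motif (TTGCNNAA, 10.8% of all promoters) was found in *Clec4e* and *Clec12a*, and an AP-1 motif (TGANTCA, 7.81%) in *Clec4a2* and *Clec12a*. None of these 4 motifs contains another, and the AP-1 letters read alike on both strands. A match is a description of the letters in this window only.

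The levels spanned a wide range, as the plot of FPKM by library shows. *Clec4a3*, *Clec4a1* and *Clec12a* took the first 3 places in all 4 libraries, in that order. *Clec4a3* and *Clec4a1* encode DCIR3 and DCIR4, relatives of the inhibitory receptor DCIR, and stood at 1082 and 732.1 FPKM in control Ly6Clo monocytes. At the other end *Clec5a* stood at 0.116 FPKM in that library, and *Clec4a2* at 4.75. Added over the 9 genes, FPKM was 2237 in control Ly6Clo, 4380 in RBP-J-deficient Ly6Clo, 1645 in control Ly6Chi and 2282 in RBP-J-deficient Ly6Chi monocytes, so the RBP-J-deficient Ly6Clo library stood above the other 3. The order of the 9 genes within each library was the same after rescaling to TPM, the same values scaled to an equal sum in every library. In TPM the sums over the 9 genes were 3119 in control Ly6Clo, 4945 in RBP-J-deficient Ly6Clo, 2311 in control Ly6Chi and 2988 in RBP-J-deficient Ly6Chi monocytes. Most of the FPKM sum of the RBP-J-deficient Ly6Clo library was *Clec4a3* and *Clec4a1*, at 2010 and 1429.

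**Figure D1:**
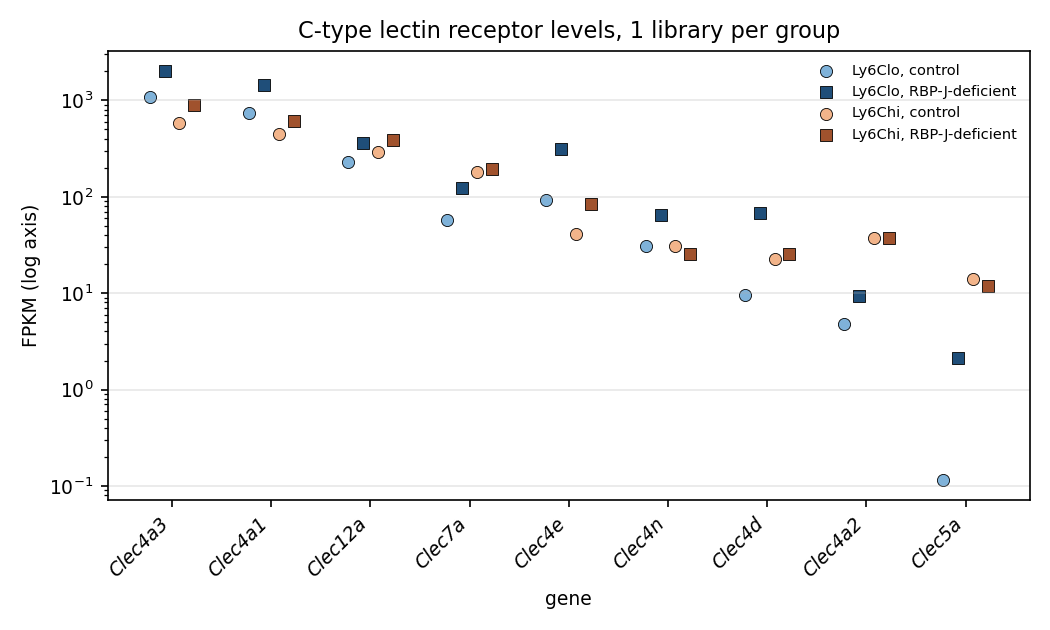
FPKM on a log axis of each of the 9 receptor genes, ordered by mean level, with 1 point for each of the 4 libraries and no error bars because each group holds 1 library. *Clec4d* stands at 9.55 in the control and at 67.6 in the RBP-J-deficient Ly6Clo library, and *Clec5a* is at 0.116 in control Ly6Clo monocytes.

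In Ly6Clo monocytes every one of the 9 genes was higher without RBP-J, by log2 ratios of (FPKM + 1) between 0.67 and 2.70 with a median of 1.04. Of all expressed genes 51.3% were higher by any amount, and their median was 0.02. Past 2-fold, 5 of the 9 were higher (*Clec4d*, *Clec4e*, *Clec5a*, *Clec7a* and *Clec4n*) and 0 were lower, where 8.97% of all expressed genes were 2-fold higher and 11.1% were 2-fold lower. All 9 also kept their direction under each of 5 other scalings and pseudocounts, with only *Clec4d* and *Clec4e* past 2-fold under all of them. FPKM summed to 717389 in the control and 885649 in the RBP-J-deficient Ly6Clo library, and rescaling to TPM moved the median of all expressed genes to -0.22. On that scale 3 of the 9 were 2-fold higher (*Clec4d*, *Clec4e* and *Clec5a*), against 5.24% of all expressed genes. The split of all genes past 2-fold was 537 higher and 1813 lower in TPM, beside 919 higher and 1134 lower in FPKM.

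On the (FPKM + 1) scale the largest ratios in Ly6Clo monocytes belonged to *Clec4d* and *Clec4e*, whose products pair with FcRγ. *Clec5a*, which was near 0 in the control library, was above *Clec4e* in TPM (1.54 against 1.44) and above both with a pseudocount of 0.1. *Clec4d* encodes MCL (Dectin-3), a receptor for the mycobacterial glycolipid trehalose dimycolate. Its FPKM was 9.55 in control Ly6Clo, 67.6 in RBP-J-deficient Ly6Clo, 22.6 in control Ly6Chi and 25.3 in RBP-J-deficient Ly6Chi monocytes. The RBP-J-deficient Ly6Clo library stood apart from the other 3, which all lay below 26 FPKM. The FPKM ratio in Ly6Clo monocytes was 7.08 and the log2 ratio of (FPKM + 1) was 2.70, which placed *Clec4d* at rank 17 of the 10240 expressed genes. It was the only one of the 9 past the upper fold of 5.7 on (FPKM + 1) that the study's methods use, a fold that 0.273% of all expressed genes reached. The study's methods pair that fold with a p-value limit, which was not applied here. In Ly6Chi monocytes its log2 ratio was 0.16, and -0.03 once the trend with GC content was taken off.

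*Clec4e* encodes Mincle, which forms a complex with MCL and also binds a nuclear protein released by dying cells. Its FPKM was 92.9 in control Ly6Clo, 312.7 in RBP-J-deficient Ly6Clo, 41.2 in control Ly6Chi and 83.8 in RBP-J-deficient Ly6Chi monocytes. Both RBP-J-deficient libraries were above the control library of their subset, by log2 ratios of 1.74 in Ly6Clo and 1.01 in Ly6Chi monocytes. It was thus the single gene of the 9 past 2-fold in both subsets, and the ratio in Ly6Chi monocytes lay just over that line and fell to 0.91 in TPM. *Clec4n* encodes Dectin-2, a receptor for fungal mannans, and had 30.5 FPKM in control Ly6Clo, 63.9 in RBP-J-deficient Ly6Clo, 30.9 in control Ly6Chi and 25.4 in RBP-J-deficient Ly6Chi monocytes. The control subsets were alike and the RBP-J-deficient Ly6Clo library was the highest. The log2 ratio of *Clec4n* was 1.04 in Ly6Clo monocytes, 0.75 in TPM, and -0.27 in Ly6Chi monocytes.

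*Clec5a* encodes MDL-1, a receptor that signals through DAP12. Its FPKM was 0.116 in control Ly6Clo, 2.11 in RBP-J-deficient Ly6Clo, 13.9 in control Ly6Chi and 11.9 in RBP-J-deficient Ly6Chi monocytes. Both Ly6Chi libraries were far above both Ly6Clo libraries. Because the deposited locus takes in 6 other coding genes, these values and the place of *Clec5a* among the 5 genes past 2-fold may not be those of *Clec5a* alone. The log2 ratio in Ly6Clo monocytes was 1.48 but rests on a level near 0 in the control library: it was 3.35 with a pseudocount of 0.1 and 0.47 with a pseudocount of 5. *Clec7a* encodes Dectin-1, the receptor for fungal beta-glucans, whose own tail carries the shortened ITAM. Its FPKM was 58.1 in control Ly6Clo, 123.3 in RBP-J-deficient Ly6Clo, 178.8 in control Ly6Chi and 193.1 in RBP-J-deficient Ly6Chi monocytes. Here too the Ly6Chi libraries stood above both Ly6Clo libraries. The log2 ratio of *Clec7a* was 1.07 in Ly6Clo monocytes and 0.77 in TPM. In Ly6Chi monocytes it was 0.11, and -0.08 after the GC trend was subtracted.

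The 4 genes that stayed under 2-fold in Ly6Clo monocytes were *Clec12a* and the DCIR group. *Clec4a2* encodes DCIR, an ITIM-bearing inhibitory receptor. Its FPKM was 4.75 in control Ly6Clo, 9.29 in RBP-J-deficient Ly6Clo, 37.6 in control Ly6Chi and 37.4 in RBP-J-deficient Ly6Chi monocytes, and the log2 ratios were 0.84 in Ly6Clo and -0.01 in Ly6Chi monocytes. Of the 50-base windows of its longest transcript, 8.92% also occur in transcripts of other genes, 4.69% in *Clec4a4*, so that reads of these stretches could not be assigned to *Clec4a2* alone. Windows shared with another gene made up 0.812% for *Clec4n* and 0.785% for *Clec12a* and 0 for the other 6 genes.

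*Clec12a* encodes MICL, an ITIM-bearing receptor for uric acid crystals and dead cells. Its FPKM was 227.0 in control Ly6Clo, 362.5 in RBP-J-deficient Ly6Clo, 294.0 in control Ly6Chi and 386.0 in RBP-J-deficient Ly6Chi monocytes, with log2 ratios of 0.67 and 0.39 in the respective subsets. It had the smallest ratio of the 9 in Ly6Clo monocytes. *Clec4a1* had 732.1 FPKM in control Ly6Clo, 1429 in RBP-J-deficient Ly6Clo, 445.1 in control Ly6Chi and 614.3 in RBP-J-deficient Ly6Chi monocytes, and log2 ratios of 0.96 and 0.46. For *Clec4a3* the 4 values were 1082, 2010, 580.6 and 904.9 FPKM in the same order, and the log2 ratios were 0.89 and 0.64. In FPKM both DCIR relatives had wide absolute gaps between the genotypes even though they stayed under 2-fold.

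**Figure D2:**
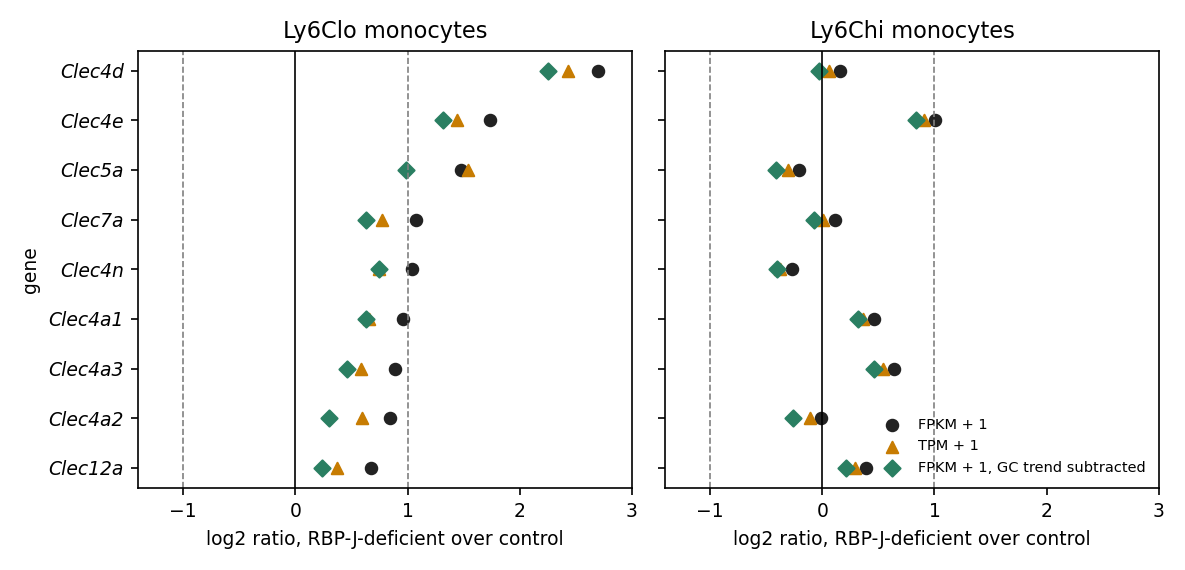
Log2 ratio of RBP-J-deficient over control for each receptor gene in Ly6Clo and Ly6Chi monocytes, from FPKM + 1, TPM + 1 and FPKM + 1 with the GC trend subtracted, with dashed lines at 2-fold. In Ly6Clo monocytes all points lie above 0 and *Clec4d* reaches 2.70, whereas in Ly6Chi monocytes they lie between -0.42 and 1.01.

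In Ly6Chi monocytes the median log2 ratio of the 9 genes was 0.16 and 6 of the 9 genes were higher by any amount, beside 50.4% of all expressed genes. Past 2-fold 1 gene was higher (*Clec4e*) and 0 were lower, with 2.64% of all expressed genes 2-fold higher and 4.56% 2-fold lower. *Clec4a2*, *Clec4n* and *Clec5a* had log2 ratios between -0.27 and -0.01. *Clec4a1*, *Clec4a3*, *Clec4e* and *Clec12a* were higher under every scaling and pseudocount tried.

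Compared within a genotype, the subsets differed in their receptors, and these comparisons share libraries with those above. In control monocytes 4 of the 9 were at least 2-fold higher in Ly6Chi than in Ly6Clo cells (*Clec4a2*, *Clec4d*, *Clec5a* and *Clec7a*), where 7.75% of all expressed genes were. One, *Clec4e*, was at least 2-fold lower in Ly6Chi cells, where 5.21% of all expressed genes were. In RBP-J-deficient monocytes 2 were at least 2-fold higher in Ly6Chi cells (*Clec4a2* and *Clec5a*), beside 10.6% of all expressed genes, and 5 were at least 2-fold lower (*Clec4a1*, *Clec4a3*, *Clec4d*, *Clec4e* and *Clec4n*), beside 8.41%. Over all expressed genes that split was 1083 higher and 861 lower in FPKM and 1582 higher and 645 lower in TPM. Over the 9 genes the median log2 ratio of Ly6Chi over Ly6Clo was 0.37 in control monocytes, and -1.15 in those lacking RBP-J. The clearest turn was in *Clec4d*, with a log2 ratio of 1.16 in control monocytes and of -1.39 in RBP-J-deficient ones. For *Clec4n* the control ratio was 0.02 and the RBP-J-deficient ratio was -1.30.

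The RBP-J-deficient Ly6Clo library also had higher levels of Ly6Chi monocyte markers, and in bulk RNA a larger share of cells of one type and more RNA per cell cannot be told apart. Of 10 Ly6Chi markers 7 were at least 2-fold higher in that library and 0 were lower, beside 8.97% and 11.1% of all expressed genes. Their median log2 ratio was 1.48, beside 0.02 for all expressed genes. The summed FPKM of the 10 was 612.5 in control Ly6Clo, 1524 in RBP-J-deficient Ly6Clo, 6232 in control Ly6Chi and 5580 in RBP-J-deficient Ly6Chi monocytes. Much of the gap between the Ly6Clo sums came from *Ccr2* (59.2 and 473.7 FPKM) and *Mgst1* (492.6 and 855.1). Over the 10 markers the RBP-J-deficient Ly6Clo level lay a median of 3.27% of the way in FPKM from the control Ly6Clo to the control Ly6Chi level. The range was from -0.37% for *Cd177* to 71.1% for *Mgst1*, with *Ccr2* at 63.5%. The same share was 13.8% for *Clec4a2*, 14.5% for *Clec5a* and 54.0% for *Clec7a*. *Clec4d*, *Clec4n* and *Clec12a* stood above the control Ly6Chi level in the RBP-J-deficient Ly6Clo library. *Clec4a1*, *Clec4a3* and *Clec4e* were lower in control Ly6Chi than in control Ly6Clo monocytes, and their RBP-J-deficient Ly6Clo level lay on the far side from the Ly6Chi level. Neutrophil markers, of which 9 of 10 were listed, summed to 268.9 FPKM in control and 169.3 in RBP-J-deficient Ly6Clo monocytes, and to 1381 and 1073 in Ly6Chi monocytes. Most of each sum was *S100a8*, at 197.2, 126.1, 1085 and 861.4 FPKM in the same order. In RBP-J-deficient Ly6Clo monocytes 1 was at least 2-fold higher, *Retnlg* (log2 ratio 1.31), and 1 was lower, *Csf3r* (-2.07), beside 8.97% and 11.1% of all expressed genes. In RBP-J-deficient Ly6Chi monocytes 2 genes, *Camp* and *Ngp*, were at least 2-fold higher and 0 were lower, beside 2.64% and 4.56%. *Camp* was at 5.52 FPKM in that library and at 0 in the other 3, and *Ngp* at 4.87 beside 0 in control Ly6Chi monocytes. The defining markers of dendritic cells and of T and NK cells summed to at most 15.1 FPKM in any library. B cell markers summed to 55.1 FPKM in control and 101.5 in RBP-J-deficient Ly6Clo monocytes, nearly all from *Cd79b* in the latter, and platelet markers to 121.5 and 121.1. The part of other cells in the receptor levels was not tested.

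**Figure D3:**
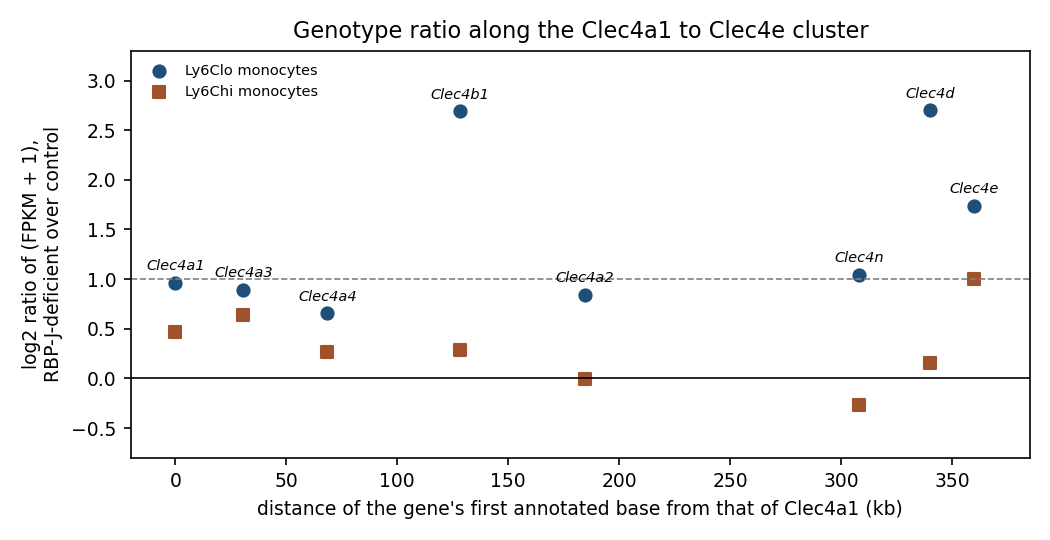
Genotype difference, RBP-J-deficient over control, as the log2 ratio of (FPKM + 1) for the 8 expressed genes of the Dectin-2 cluster against the distance in kb of the gene's first annotated base from that of *Clec4a1*, in Ly6Clo (circles) and Ly6Chi (squares) monocytes, with a dashed line at 2-fold. The Ly6Clo ratios all lie above 0, with *Clec4b1* at 2.69 and *Clec4d* at 2.70 on either side of *Clec4a2* at 0.84.

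The Dectin-2 cluster spans 360 kb from the start of *Clec4a1* to that of *Clec4e*. All 8 of its expressed genes were higher by any amount in RBP-J-deficient Ly6Clo monocytes, beside 51.3% of all expressed genes. Of the 8, 6 were members of the set already counted above, and 2 were others. One of these, *Clec4b1*, had 63.0 FPKM in control Ly6Clo, 412.2 in RBP-J-deficient Ly6Clo, 32.7 in control Ly6Chi and 40.2 in RBP-J-deficient Ly6Chi monocytes. Its log2 ratio of 2.69 in Ly6Clo monocytes was close to that of *Clec4d*, and was 2.39 in TPM and 2.36 with the GC trend subtracted. Its neighbour *Clec4a4* had 0.66, which was 0.37 in TPM and 0.25 with the GC trend subtracted. The size of the ratio did not run in one direction along the cluster, with *Clec4a2* and *Clec4n*, at 0.84 and 1.04, between *Clec4b1* and *Clec4d*. *Clec4b2* was listed at 0 in all 4 libraries. In the Dectin-1 cluster the other expressed genes, *Clec1b* (the platelet receptor CLEC-2) and *Olr1* (the receptor LOX-1), had log2 ratios of 0.89 and 0.91.

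Of 25 other C-type lectin genes 14 were expressed, and past 2-fold 2 were higher in RBP-J-deficient Ly6Clo monocytes, *Clec4b1* and *Cd302* (1.69), and 1 was lower, *Mgl2* (-1.73), beside 8.97% and 11.1% of all expressed genes. The median log2 ratio of this list was 0.13, and -0.10 in TPM and -0.08 after GC subtraction. *Cd302* encodes an endocytic receptor of myeloid cells, and had 149.9 FPKM in control and 484.8 in RBP-J-deficient Ly6Clo monocytes. *Cd209a*, which encodes a DC-SIGN homologue, had log2 ratios of -0.44 in Ly6Clo and -0.39 in Ly6Chi monocytes.

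The genes through which the receptors signal were described from lists of adaptors, kinase route and phosphatases. Among the 3 adaptor chains 0 were past 2-fold in either direction in Ly6Clo monocytes. *Fcer1g*, whose product partners MCL, Mincle and Dectin-2, was at 8889 FPKM in control and 12099 in RBP-J-deficient Ly6Clo monocytes, a log2 ratio of 0.44. *Tyrobp*, whose product DAP12 partners MDL-1, was at 4293 and 2195 FPKM, a log2 ratio of -0.97 that was -1.27 in TPM, past 2-fold, and -0.67 with the GC trend subtracted. Of 13 expressed genes of the SYK and CARD9 route 0 were 2-fold higher and 1 was 2-fold lower, *Card9*, at 13.2 FPKM in control and 5.05 in RBP-J-deficient Ly6Clo monocytes. The log2 ratio of *Card9* was -1.23 in Ly6Clo and -1.51 in Ly6Chi monocytes, and the list's median in Ly6Clo monocytes was -0.28. Over all expressed genes 11.1% were 2-fold lower. In TPM 5 of the 13 were 2-fold lower, as were 1813 of all 10240 expressed genes, and after the GC trend was subtracted 0 of the 13 and 995 of all were. In Ly6Chi monocytes *Fyn*, a *Src*-family kinase, was the one gene of this list past 2-fold higher, at 3.46 FPKM in control and 12.3 in RBP-J-deficient monocytes. Of the 3 phosphatases 1 was 2-fold lower in Ly6Clo monocytes, *Inpp5d*, which encodes SHIP1 (log2 ratio -1.22). Of the ITIM partners, *Ptpn6* (SHP-1) had a log2 ratio of -0.60, whereas *Ptpn11* (SHP-2) had 0.82, at 3.79 FPKM in control and 7.48 in RBP-J-deficient Ly6Clo monocytes.

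**Figure D4:**
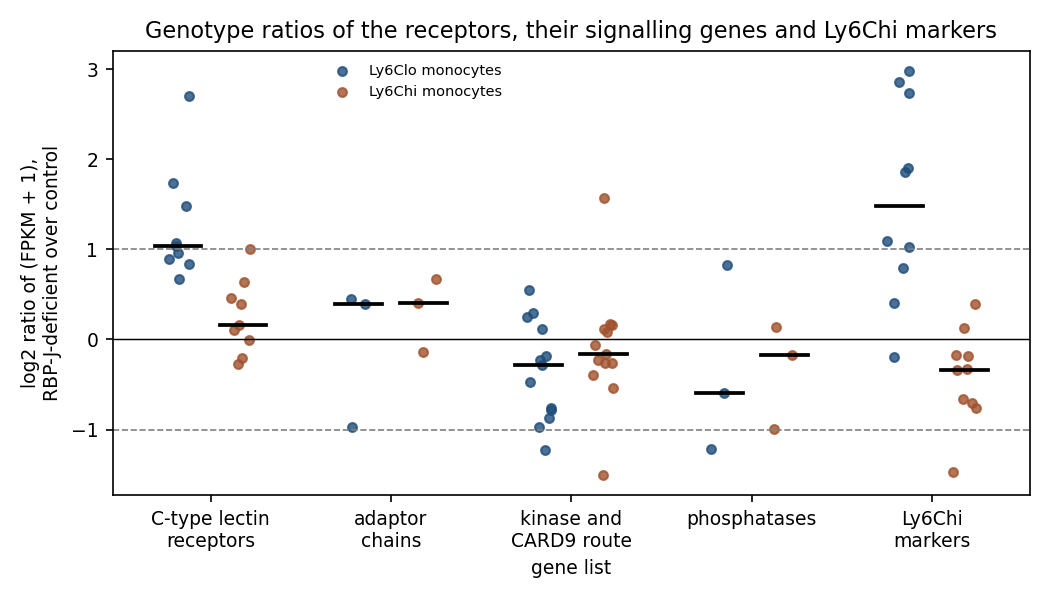
Genotype difference, RBP-J-deficient over control, as the log2 ratio of (FPKM + 1) for each expressed gene of 5 lists in Ly6Clo and Ly6Chi monocytes, with a bar at the median of each list and dashed lines at 2-fold. The receptors have a median of 1.04 in Ly6Clo monocytes, the kinase and CARD9 route -0.28 and the Ly6Chi markers 1.48.

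The receptor genes also share a low GC content. The longest GENCODE transcripts of the 9 genes held 36.8% to 45.4% GC, all under the 49.3% median of expressed genes, and the ratio between the Ly6Clo libraries moved with GC content over all genes. At the GC content of the 9 genes this trend stood at log2 ratios of 0.30 to 0.54 in Ly6Clo and 0.13 to 0.25 in Ly6Chi monocytes. With the trend subtracted the median of the 9 in Ly6Clo monocytes was 0.63, and 2 of them, *Clec4d* at 2.25 and *Clec4e* at 1.31, stayed at least 2-fold higher, where 8% of all expressed genes (819 of 10240) were. *Clec5a* lay just under at 0.99. The adaptors, the SYK and CARD9 route and the phosphatases had higher median GC contents of 54.8%, 52.2% and 53.6%. The part of GC content in the receptor ratios was not tested.

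**Figure D5:**
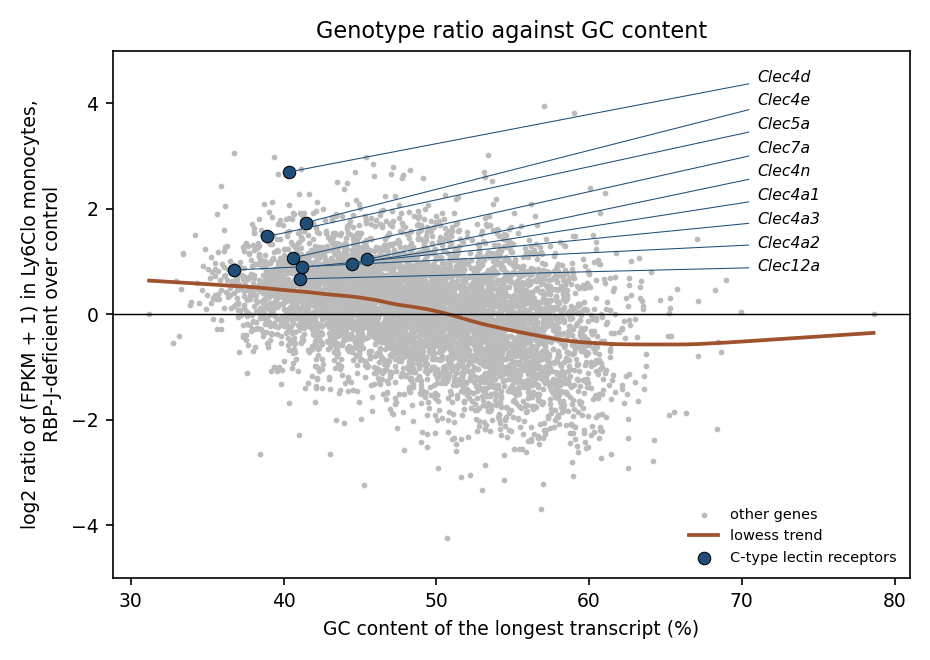
Log2 ratio of (FPKM + 1) of the RBP-J-deficient over the control Ly6Clo library against the GC content in percent of the longest transcript for 6086 genes whose mean FPKM reached 5 (7 lie beyond the drawn range of 5), with the lowess trend as a line. The 9 receptor genes lie between 36.8% and 45.4% GC and all above the trend.

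Genes with the most similar pattern over the 4 libraries were looked up for the 3 members with the widest range, by the Euclidean distance of log2(FPKM + 1) centred on the mean of the 4 libraries, among 6404 genes. Nearest to *Clec5a* were *Slpi*, *Ndrg1* and *Ifi205*, at distances of 0.21 to 0.25. Nearest to *Clec4e* were *Haus1*, *Abcc5* and *B230216N24Rik*, at 0.15 to 0.19. Nearest to *Clec4a2* were *Cfb*, *Gpr160* and *Ifit1*, at 0.22 to 0.35.

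*Rbpj* itself was at 8.30 FPKM in control and 2.43 in RBP-J-deficient Ly6Clo monocytes (log2 ratio -1.44), and at 14.4 and 2.85 in Ly6Chi monocytes (-2.00), so both libraries labelled deficient held less of its transcript. Monocyte markers were present in all 4 libraries, with 5 of 6 listed and a summed FPKM between 1693 and 2479. Most of the sum was *Cd68*, at 1713 FPKM in control and 2108 in RBP-J-deficient Ly6Clo monocytes. Of the 5, 1 was 2-fold lower in RBP-J-deficient Ly6Clo monocytes, *Csf1r* (406.7 FPKM in control and 157.8, log2 ratio -1.36). Another 1 was 2-fold higher, *Lyz2* (52.0 and 133.9, 1.35). Of all expressed genes 11.1% were 2-fold lower and 8.97% higher. FPKM sums ranged from 711532 to 885649, and between 8985 and 9394 symbols reached an FPKM of 1. Read counts were not used here, so depth is unknown and no counting interval can be given. For *Actb* the estimate failed in both RBP-J-deficient libraries and is listed at 0. Listed values of 0 were kept in the ratios, the FPKM sums, TPM and the counts of genes past 2-fold. A value of 0 therefore need not mean absence, and the counts of lower genes may include failed estimates.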

How the data were processed

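The authors sorted blood Ly6Clo and Ly6Chi monocytes, sequenced paired-end RNA-seq libraries on a HiSeq2500 and deposited FPKM values of each gene for each pair of libraries. The submitters' processing notes name CASAVA 1.8, TopHat2 2.1.0, Cufflinks 2.2.1 and mm10. The deposited p-values, q-values and fold changes compare single libraries and were not used. Depth is unknown.

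Rows sharing a symbol were summed within each pair. The log2 ratio of (FPKM + 1) was computed, which understates changes of low genes. Expressed genes reached an FPKM of 1 in 1 or more libraries, and 2-fold was the line used. With 1 library per group no test was possible. The members and gene lists were chosen with earlier results of these data known. Genes named were the 9 members, *Rbpj*, from each other list up to 3 of the highest mean FPKM and up to 4 past 2-fold, the most similar genes of 3 members, and a few others chosen after their values were seen (the cluster neighbours, *Cd177*, *Mgst1*, *Camp*, *Ngp*, *Cd79b* and *Actb*).

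GC content came from the longest GENCODE M21 transcript (94.9% of expressed genes), and its trend from a lowess fit (fraction 0.3, 3 iterations) on 6086 genes. GENCODE and RefSeq positions are on GRCm38, the build of mm10. Alternatives were pseudocounts of 0.1 and 5, TPM, median centring, GC subtraction, other FPKM filters and fold lines of 1.5 and 5.7 (0.2 downwards). Python 3.11.15, numpy 2.4.6, pandas 2.3.3 and statsmodels 0.14.6 were used, and the procedure was tested on simulated data.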

Additional observations from a re-analysis of the deposited data

Results flagged for a closer look

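In 3 of the receptor genes the genotype difference had opposite signs in the subsets, higher in RBP-J-deficient Ly6Clo and lower in RBP-J-deficient Ly6Chi monocytes. Of all expressed genes 51.3% were higher in RBP-J-deficient Ly6Clo and 50.4% in RBP-J-deficient Ly6Chi monocytes. The share of all expressed genes with opposite signs was not counted, so the 3 cannot be called unusual. The log2 ratio in Ly6Clo less that in Ly6Chi monocytes was 1.68 for *Clec5a*, 1.31 for *Clec4n* and 0.85 for *Clec4a2*. Each value rests on 1 library per group and the difference was not tested. The ratio in Ly6Chi monocytes was -0.20 for *Clec5a*, -0.27 for *Clec4n* and -0.01 for *Clec4a2*, all under 2-fold, and the *Clec4a2* levels were nearly alike. With the GC trend subtracted the ratios of *Clec4d* and *Clec7a* in Ly6Chi monocytes were negative as well, at -0.03 and -0.08.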

How the results depend on the processing

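Of 180 ratios of single receptor genes under alternatives, 163 kept their direction and their side of 2-fold and 0 reversed past 2-fold. The median over the 9 genes in Ly6Clo monocytes, 1.04, was 0.96 with a pseudocount of 5, 0.75 in TPM and 0.63 with the GC trend subtracted. The 5 genes 2-fold higher were 3 with a pseudocount of 5, 3 in TPM, 2 with GC subtraction, 9 at 1.5-fold and 1 at the study's folds. In Ly6Chi monocytes the median of 0.16 became -0.032 with GC subtraction, through *Clec4d*, and the 1 gene 2-fold higher became 0 with a pseudocount of 5, in TPM, with GC subtraction and at the study's folds, and 2 at 1.5-fold. Between the control subsets the 1 gene lower in Ly6Chi cells became 3 at 1.5-fold and 0 at the study's folds, where the 4 higher became 2. Between the RBP-J-deficient subsets the median of -1.15 was -0.94 in TPM and -0.79 with GC subtraction. The 5 lower there became 3 with GC subtraction and 0 at the study's folds, and the 2 higher became 1 where each of the 4 libraries had to reach an FPKM of 1 and 0 at the study's folds.

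Over all expressed genes, 919 higher and 1134 lower in Ly6Clo monocytes became 511 and 458 with a pseudocount of 5, 1305 and 1747 with 0.1, 537 and 1813 in TPM, and 2360 and 2250 at 1.5-fold. In Ly6Chi monocytes 270 and 467 became 73 and 101 with a pseudocount of 5, 591 and 933 with 0.1, 272 and 708 in TPM, 1119 and 1469 at 1.5-fold, and 163 and 247 with the filter on all 4 libraries. Between the control subsets 794 and 533 became 365 and 241 with a pseudocount of 5, 1174 and 877 with 0.1, and 1657 and 1402 at 1.5-fold, and the higher ones 472 with that filter. Between the RBP-J-deficient subsets 1083 and 861 became 400 and 412 with a pseudocount of 5, 1655 and 1247 with 0.1, 1582 and 645 in TPM, and 2186 and 2119 at 1.5-fold, and the higher ones 676 with that filter. The cause of these shifts was not tested. No replicate could be left out with 1 library per group. No paired analysis was possible because no group shares a replicate number beyond its single library.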

Other observations

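Markers of Ly6Clo monocytes were looked up beside the receptors. In RBP-J-deficient Ly6Clo monocytes 3 of 10 were at least 2-fold lower, *Nr4a1* (log2 ratio -3.22), *Ace* (-2.55) and *Itgal* (-1.49), and 1 was higher, *Cd36* (1.15, and 0.85 in TPM), where 11.1% of all expressed genes were 2-fold lower and 8.97% higher. *Nr4a1* encodes the nuclear receptor on which Ly6Clo monocytes depend, and had 618.2 FPKM in control and 65.6 in RBP-J-deficient Ly6Clo monocytes. This gap rests on 1 library per group and was not tested, so the values do not show that it holds in other animals. In RBP-J-deficient Ly6Chi monocytes 4 of the 10 were at least 2-fold higher, *Cd36* (2.31), *Eno3* (1.89), *Fcgr4* (1.25) and *Treml4* (1.03, and 0.93 in TPM), and 0 were lower, beside 2.64% and 4.56% of all expressed genes. The promoter of *Clec4b1*, searched after its ratio was seen, held a TGGGAA match at -61 from its start site. That motif was found in 25.6% of all promoters and in 0 of the 8 receptor genes searched. A link between the match and the ratio was not tested.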
